A study of Mus musculus with 10 samples.

Results

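The P3 stromal cells of mouse inguinal white adipose tissue (iWAT) were selected on their own counts of unique molecular identifiers (UMIs, each standing for 1 captured mRNA molecule). A cell was called stromal when Col1a1, Col1a2, Col3a1, Dcn, Gsn, Lum, Pdgfra and Serpinf1 together held at least 4% of its UMIs. It was called P3 when its summed UMIs of Inmt, Igfbp3, Gdf10, Fmo2, Clec11a, C7, Chrdl1 and F3 were at least 2 and above those of a P1 list (Pi16, Dpp4, Sema3c, Fndc1, Smpd3, Anxa3 and Akr1c18) and of a P2 list (Col15a1, Fgf10, Icam1, Lpl, Cdh11, Adam12 and Col5a3). This gave 106 P3 cells among 2532 stromal cells and 10914 cells in all. The same rule with the other lists gave 395 P1 and 889 P2 cells, the nearest classes for comparison. The cells came from the stromal vascular fraction of lean mice aged 7 weeks, the tissue left after digestion and removal of adipocytes and red cells, and were profiled by Seq-Well S3. Bbs8 KO stands for Bbs8-/-, a constitutive loss of the BBSome subunit BBS8 in every tissue, and Bbs8 WT for Bbs8+/+. The series text names 1 mouse per genotype, so no test between genotypes was possible and no p-value is given. Each genotype held 5 barcode sets with codes that the labels do not explain. The sets were read as technical, and their ranges are given in place of a replicate error. Whether KO5 and KO6, and WT3 and WT4, in the codes stand for arrays or animals is not stated. Of the P3 cells, 58 were Bbs8 KO and 48 were Bbs8 WT.

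Adipocyte precursors of white fat fall into subpopulations that share Pdgfra and fibrillar collagens. P1 cells carry Dpp4 and Pi16 and are described as early progenitors, P2 cells carry Icam1 and are described as committed preadipocytes, and P3 cells carry F3 (CD142) and have been described as regulators that restrain adipogenesis of the other precursors. The 8 genes of the P3 list code mostly for secreted or membrane proteins. Gdf10 (BMP3B) is a TGF-beta family ligand, Chrdl1 is a secreted BMP antagonist, Igfbp3 binds insulin-like growth factors, and Clec11a (osteolectin) is a secreted growth factor of bone stroma. F3 is tissue factor, the initiator of coagulation, and C7 is a component of the membrane attack complex. Inmt and Fmo2 are enzymes, an indolethylamine N-methyltransferase and a flavin monooxygenase.

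Sequence upstream of the 4 list genes with the most UMIs in P3 cells is shown because these genes carried most of the selection. The bases are from RefSeq (GRCm38.p6), 5′ to 3′ on the strand of the gene, and end at the base before the first annotated one. Capitals mark matches on either strand to any of the 7 motifs named after the sequences. Inmt lies at chr6:55175044-55175240 (minus strand), Igfbp3 at chr11:7213924-7214173 (minus strand), Fmo2 at chr1:162898759-162899008 (minus strand, the more upstream of 2 listed starts) and Gdf10 at chr14:33923337-33923586 (plus strand).
Inmt: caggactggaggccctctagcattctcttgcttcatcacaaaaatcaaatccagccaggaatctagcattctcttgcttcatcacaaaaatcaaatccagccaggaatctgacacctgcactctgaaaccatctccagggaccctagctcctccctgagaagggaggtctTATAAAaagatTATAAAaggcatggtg
Igfbp3: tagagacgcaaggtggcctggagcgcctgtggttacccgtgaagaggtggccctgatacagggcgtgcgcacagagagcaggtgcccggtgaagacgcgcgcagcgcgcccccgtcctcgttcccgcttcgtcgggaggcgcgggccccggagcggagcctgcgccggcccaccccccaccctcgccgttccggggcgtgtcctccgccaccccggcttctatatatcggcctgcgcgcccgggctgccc
Fmo2: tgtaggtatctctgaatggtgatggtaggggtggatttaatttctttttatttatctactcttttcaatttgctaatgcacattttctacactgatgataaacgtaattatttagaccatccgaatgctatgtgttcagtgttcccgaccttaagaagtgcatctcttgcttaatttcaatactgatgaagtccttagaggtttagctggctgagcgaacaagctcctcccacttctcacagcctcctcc
Gdf10: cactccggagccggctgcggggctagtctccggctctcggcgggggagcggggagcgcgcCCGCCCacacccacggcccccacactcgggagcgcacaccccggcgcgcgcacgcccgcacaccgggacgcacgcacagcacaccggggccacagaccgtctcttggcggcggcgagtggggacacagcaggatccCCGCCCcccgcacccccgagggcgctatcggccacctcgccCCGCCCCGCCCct
Inmt held 2 TATAAA matches close to its start, and Gdf10 held 4 GGGCGG matches, 2 of which overlapped by 1 base. Igfbp3 and Fmo2 held no match in these windows. The printed stretch of Inmt has 197 bases, since an annotated transcript starts further upstream, and the other 3 have 250. The search itself took the 250 bases before each RefSeq start, where 7 of the 8 list genes had an entry, and Chrdl1 is named only. TATAAA was found for Inmt and C7, against 12.4% of 32851 promoters. GGGCGG was found for Gdf10, F3 and Clec11a, against 32.7% of promoters. CCAAT was found for Clec11a alone (33.8% of promoters) and TGANTCA for F3 alone (6.75%). AGGTCA was found for C7 and at the other start of Fmo2 (14.0%). The GLI motif GACCACCCA was found upstream of none of the 7 genes (0.225% of promoters), nor was the palindromic glucocorticoid element (0.00913%).

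The genes of the P3 list were used to choose the cells, so their levels are a description. Inmt had 158 UMIs in P3 cells, which is 2778 counts-per-million (CPM, per UMIs of the same cells) in Bbs8 KO versus 2818 CPM in Bbs8 WT. Igfbp3 had 154 UMIs, 3077 CPM in Bbs8 KO versus 2211 CPM in Bbs8 WT. These 2 genes were each detected in 47 of the 106 cells (44.3%). Fmo2 followed with 1285 CPM in Bbs8 KO versus 1778 CPM in Bbs8 WT, and Gdf10 with 1763 CPM and 911 CPM. Chrdl1 had 807 CPM in Bbs8 KO versus 780 CPM in Bbs8 WT (1207 CPM without WT4_p2). Clec11a (807 CPM against 303 CPM) and Gdf10 were the list genes with the higher level in Bbs8 KO by about 2-fold or more, whereas C7 stood at 209 CPM in Bbs8 KO versus 477 CPM in Bbs8 WT (226 CPM without WT4_p2). F3, the gene that names the population, was among the rarest, with 18 UMIs in 14 cells (13.2%), 358 CPM in Bbs8 KO versus 260 CPM in Bbs8 WT. Single sets decided this order, since 8 of the 12 Bbs8 KO UMIs were from KO6_p2, without which Bbs8 KO had 154 CPM, and 4 of the 6 Bbs8 WT UMIs were from WT3_p1, without which Bbs8 WT had 104 CPM, and without WT4_p2 it had 453 CPM. F3 held 3.05% of the UMIs of the list in P3 cells, whereas Inmt and Igfbp3 held 26.7% and 26.1%, so the class rested mainly on the latter genes.

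The background was low in lymphocytes but not in every other cell. In cells marked as lymphocytes, which should lack these genes, each list gene had 1.7 to 21.7 CPM. By contrast, 56 cells with under 4% of stromal UMIs met the list rule, with Inmt at 1307 CPM and Fmo2 at 1568 CPM. Endothelial markers had 2577 CPM in these 56 cells and 177 CPM in P3 cells. In P1 and P2 cells the rule keeps the P3 sum below that of their own list. Inmt stood there at 57.1 and 103 CPM and Gdf10 at 47.6 and 124 CPM. F3 had 0 UMIs in P1 cells and 15.0 CPM in P2 cells. Chrdl1 was the exception among the 8 genes, with 195 CPM in P1 cells (41 UMIs in 35 cells) against 12.9 CPM in P2 cells. Of the stromal genes, Gsn reached 17104 CPM in P3 cells against 7929 CPM in P1 and 6655 CPM in P2 cells, and Dcn 12010 CPM against 6291 and 6565 CPM. Col1a1 (6651 CPM) and Pdgfra (690 CPM) stood near their P1 levels of 6914 and 719 CPM. P3 cells also held genes of the other lists. Lpl had 884 CPM in 34 of the 106 cells (5082 CPM in P2 cells) and Col15a1 had 584 CPM in 26 cells (807 CPM in Bbs8 KO, 260 CPM in Bbs8 WT), against 318 CPM each for F3 and C7 over both mice. Col15a1 was above F3 and C7 in Bbs8 KO, but in Bbs8 WT it equalled F3 and was below C7. Pi16 had 177 CPM (3433 CPM in P1 cells).

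**Figure D1:**
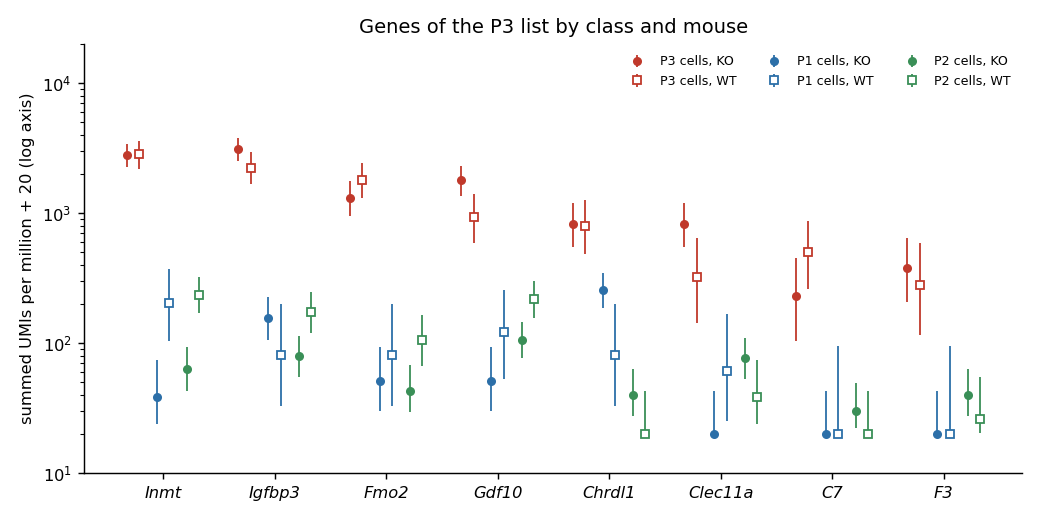
Summed CPM plus 20 (log axis) of the 8 genes of the P3 list in P3, P1 and P2 cells of each mouse, filled for Bbs8 KO and open for Bbs8 WT, with exact 95% counting intervals. These genes chose the P3 cells, so the gap between classes is set by the rule, and Chrdl1 is the gene with the highest level in P1 cells of Bbs8 KO.

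Single barcode sets differed widely for the same gene. They held only 6 to 18 P3 cells each, and the cause of the spread was not tested. Inmt in the Bbs8 KO sets was 0 CPM in KO5_p2, 1637 CPM in KO5_p3, 3675 CPM in KO6_p1, 4920 CPM in KO6_p2 and 1133 CPM in KO6_p3. In the Bbs8 WT sets it was 6787 CPM in WT3_p1, 756 CPM in WT3_p2, 1701 CPM in WT3_p3, 2956 CPM in WT4_p2 and 904 CPM in WT4_p3. The genotypes overlapped. Igfbp3 ran from 665 CPM in KO6_p2 to 8657 CPM in KO5_p2 and from 756 to 4254 CPM over the Bbs8 WT sets. The set with the most Igfbp3, KO5_p2, was thus the set without an Inmt UMI. Gdf10 was found in all 5 Bbs8 KO sets (641 to 2394 CPM) and in 4 of the 5 Bbs8 WT sets (0 to 1827 CPM), again with overlap.

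Few P3 cells carried many of the list genes at once. Of the 106 cells, 25 held a single list gene, 42 held 2, 24 held 3, 8 held 4, 5 held 5 and 2 held 6. The most abundant list gene of a cell was Igfbp3 in 26 cells, Inmt in 20, Fmo2 in 16, Gdf10 in 8, Chrdl1 in 4, Clec11a in 3, C7 in 2 and F3 in 0, and 27 cells had a tie. Inmt and Igfbp3 were found together in 24 cells, 51.1% of the 47 cells of each gene. Igfbp3 and Fmo2 shared 6 cells, 12.8% of the Igfbp3 cells and 16.2% of the Fmo2 cells. Of the 14 cells with F3, 9 also held Fmo2 (64.3%) and 8 held Inmt (57.1%).

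The selection favoured cells with more UMIs. The median P3 cell held 476 UMIs (Bbs8 KO) or 391 UMIs (Bbs8 WT), against 277 and 300 for all stromal cells. Exactly 2 UMIs of the list, the lowest sum that the rule takes, were held by 34 cells, and the 40 stromal cells with a single UMI of the list and none of the others fell just outside, with a median of 209.5 UMIs. A further 74 stromal cells held 2 or more UMIs of the P3 list but not more than of both other lists. At the stromal limit, 13 P3 cells held 4 to 5% of stromal UMIs, and 24 cells that met the list rule held 3 to 4%. Mitochondrial UMIs made up 4.71% in Bbs8 KO versus 5.80% in Bbs8 WT P3 cells, and the Gm42418 transcript, which holds ribosomal RNA sequence, took 10.8% and 15.9%. The deleted gene Bbs8, listed as Ttc8, had 0 UMIs in the P3 cells of both mice, which allows up to 89.6 CPM in Bbs8 KO versus 130 CPM in Bbs8 WT, so its loss was not detectable within these cells. In the whole table it had 0 UMIs in Bbs8 KO and 5 UMIs in 3 cells of Bbs8 WT, all in WT4_p2. Of the P3 cells, 3 had a barcode found in more than 1 set and 1 barcode was shared by 2 P3 cells.

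Markers of immune cells were found in part of the P3 cells, and 34 of the 58 Bbs8 KO and 40 of the 48 Bbs8 WT cells held no UMI of the T cell, B cell or macrophage lists. The endothelial list had 149 CPM in Bbs8 KO versus 217 CPM in Bbs8 WT, and the adipocyte list had 0 UMIs. The B cell list had 896 CPM in Bbs8 KO (321 to 1194 CPM over its sets) and 347 CPM in Bbs8 WT (0 to 904 CPM), with 7 of 10 and 4 of 10 markers detected and the defining markers Cd79a and Cd22 at 0 in both. The macrophage list had 418 CPM in Bbs8 KO (0 to 1133 CPM) and 217 CPM in Bbs8 WT (0 to 408 CPM), with 5 and 3 of 12 markers detected and Adgre1, Cd68 and C1qa at 0 in both. Of these markers, Lyz2 (6 UMIs), Ctss (5 UMIs), C1qb, Cd163 and Csf1r (1 UMI each) were found in Bbs8 KO cells. The T cell list had 358 CPM in Bbs8 KO (0 to 818 CPM) and 173 CPM in Bbs8 WT (0 to 408 CPM), with 5 and 4 of 12 markers detected and Cd3e at 0 in both, whereas the T cell receptor genes Trac (5 UMIs and 1 UMI) and Trbc2 (2 UMIs and 1 UMI) were found in both and Cd3d (1 UMI) in Bbs8 WT. The cycling genes had 11 UMIs in Bbs8 KO (329 CPM, 5 of 12 genes) and 0 UMIs in Bbs8 WT.

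P3 cells were a smaller share of stromal cells in Bbs8 KO than in Bbs8 WT. They made up 58 of 1768 stromal cells in Bbs8 KO, 3.28% (2.50 to 4.22%, exact Clopper-Pearson 95% interval), and 48 of 764 in Bbs8 WT, 6.28% (4.67 to 8.24%). The difference was -3.00 percentage points (-5.08 to -1.22), an interval that covers counting error only and not the spread between mice. The Bbs8 KO sets held 1.67, 2.50, 4.96, 3.80 and 3.46%, and the Bbs8 WT sets held 6.87, 5.97, 6.67, 6.80 and 5.03%. The highest Bbs8 KO set was just below the lowest Bbs8 WT set, and their intervals overlapped. With a minimum of 3 UMIs of the list, the shares were 2.49% and 3.66%, and the interval of the difference took in 0 (-2.88 to 0.219 points). A lower share was not particular to P3, since P2 made up 31.1% (29.0 to 33.3%) in Bbs8 KO versus 44.4% (40.8 to 48.0%) in Bbs8 WT. P1 went the other way, at 16.9% (15.1 to 18.7%) versus 12.7% (10.4 to 15.3%). By flow cytometry, the paper instead reported a slight increase of P3 among adipocyte precursors of lean Bbs8-/- mice. Why these results differ was not tested.

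The share depended on the depth of a cell, and the order of the genotypes was kept in each of 3 bins of depth. Among stromal cells with 127 to 225 UMIs, 1.22% were P3 in Bbs8 KO and 2.69% in Bbs8 WT. From 226 to 385 UMIs the shares were 2.26% and 5.40%, and from 387 UMIs up they were 6.54% and 9.89%, with overlapping intervals in each bin. After each cell was thinned to 200 UMIs, 36 of 1290 stromal cells in Bbs8 KO (2.79%) and 36 of 654 in Bbs8 WT (5.50%) met the rule.

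**Figure D2:**
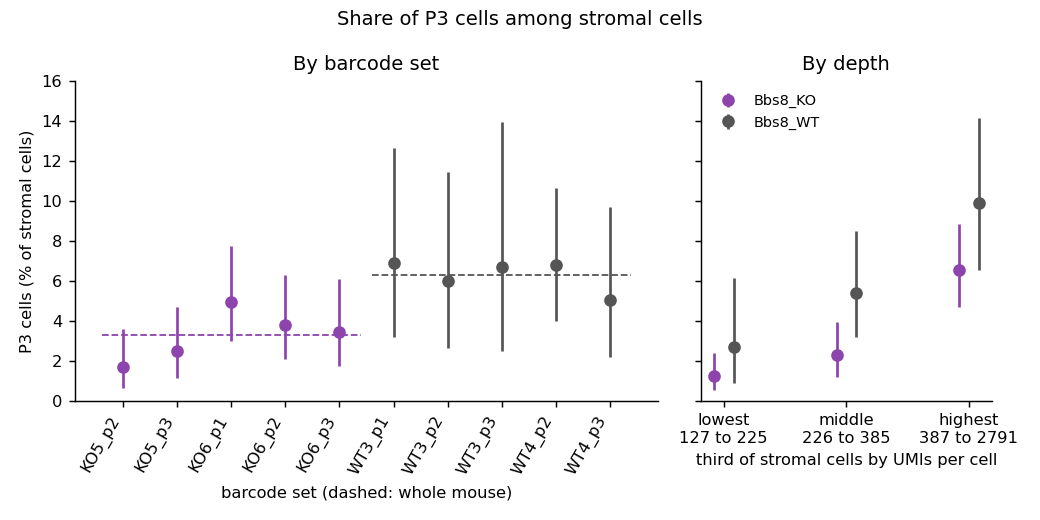
P3 cells as a percentage of stromal cells in each barcode set (left, dashed lines for the whole mouse) and in 3 bins of UMIs per cell (right), with exact 95% counting intervals, Bbs8 KO in purple and Bbs8 WT in grey. The Bbs8 KO sets lie between 1.67 and 4.96% and the Bbs8 WT sets between 5.03 and 6.87%, and the share is higher in deeper cells of both mice.

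To find what P3 cells share outside the genes that chose them, their summed UMIs were set against those of P1 cells. A gene was called at a ratio of at least 2-fold (on CPM with 20 CPM added to both sides) with the same direction in both mice, and the 30 genes of the rule were left out. The classes were cut from the same counts, so the calls describe them and are no test. Of 2066 genes with at least 20 UMIs, 135 were called higher in P3 cells (6.53%) and 252 lower (12.2%). The split depended on the scaling, with 66 higher and 385 lower under TMM factors, which moved the median of all genes to -0.32 on the log2 scale. Of the main calls, 114 higher and 140 lower had a counting interval on one side of 0. The minimum took both classes together, so a gene scarce in 1 class reached it through the class where it is high.

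Mgp (GRCm38 chr6:136872435-136875823, minus strand), which codes for matrix Gla protein, an inhibitor of calcification, led the genes higher in P3 cells. It had 1524 CPM in Bbs8 KO versus 1344 CPM in Bbs8 WT P3 cells, and was found in every barcode set (409 to 2527 CPM and 378 to 2039 CPM). P1 cells had 57.1 CPM and P2 cells 101 CPM, a log2 ratio of 4.25 to P1 (3.78 to 5.68, exact 95% interval of the plain ratio) and of 3.60 to P2 (3.31 to 4.40). Gas6, a ligand of the TAM receptor kinases, showed the same pattern with 2069 CPM in P3 cells against 148 CPM in P1 and 195 CPM in P2 cells (log2 ratios of 3.64 and 3.28). It stood at 1942 CPM in Bbs8 KO versus 2255 CPM in Bbs8 WT. Vtn, which codes for the adhesive protein vitronectin, had 20 UMIs in 14 P3 cells and 0 in P1 cells, so it was at least 24.8-fold higher. These 20 UMIs alone took it past the minimum, so its call against P1 cells was fixed in advance. Its log2 ratio to P1 cells, 4.22, was just below that of Mgp. Over the other settings it reached 6.16, against 4.55 for Mgp, so their order rests on the setting. In P2 cells Vtn had 32.2 CPM against 354 CPM in P3 cells.

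Several other genes called higher against P1 cells code for secreted proteins. Igfbp7, a binding protein of the insulin-like growth factor system, was found in 74 of the 106 P3 cells, with 4051 CPM against 467 CPM (log2 ratio 3.06, 2.77 to 3.47). Cxcl12, the ligand of CXCR4, had 1327 CPM against 124 CPM (3.23, 2.76 to 4.12), and Kitl, the ligand of KIT, 495 CPM against 66.7 CPM (2.57). Both are factors by which stromal cells maintain blood progenitors in marrow. The ferroxidase gene Cp, the matrix genes Tgfbi, Spock2 and Bgn, Crispld2 and the complement protease gene C2 made up the rest of the 12 highest ratios, from 2.55 for Bgn to 3.42 for Tgfbi. In the other direction, Lrrn4cl had 610 CPM in P1 cells and 0 UMIs in P3 cells, at least 11.5-fold lower. Efhd1, the chemokine scavenger Ackr3 and the endothelin gene Edn1 were also at 0 UMIs in P3 cells, at least 4.40-fold, 4.22-fold and 3.59-fold lower. Pla1a, a phospholipase gene, had 70.8 CPM against 648 CPM (-2.88), and Zyx, which codes for the focal adhesion protein zyxin, 35.4 CPM against 386 CPM (-2.87).

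Against P2 cells, 197 of 4249 genes were called higher in P3 cells (4.64%) and 634 lower (14.9%). Under TMM factors the counts were 124 and 830, with a median of -0.32 over all genes. Of the main calls, 155 higher and 151 lower had a counting interval on one side of 0, so the excess of lower calls was not seen among these. C3, the central complement component, was the most abundant of the leading genes. It had 7528 CPM in Bbs8 KO versus 7848 CPM in Bbs8 WT P3 cells, 1122 CPM in P2 cells (log2 ratio 2.75, 2.58 to 2.96) and 4905 CPM in P1 cells (0.64, not called). Sfrp4, a secreted WNT antagonist, had 725 CPM in P3 cells, 77.3 CPM in P2 cells and 457 CPM in P1 cells. The matrix gene Fbln1 had 991 CPM against 131 CPM (2.74) and Apod, a lipid carrier, 1503 CPM against 253 CPM (2.48). Itgbl1 (336 CPM against 19.3 CPM), the GABA receptor subunit gene Gabra3 (389 CPM against 40.8 CPM), Ppl, Dact1 and C2 completed the 12 highest together with Mgp, Gas6 and Vtn. So 4 of the 12, namely Mgp, Gas6, Vtn and C2, led against P1 and P2 cells alike, though the minimum fixed the call of Vtn against P1 cells.

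Of the genes called lower in P3 than in P2 cells, Thbs1, thrombospondin 1, had 0 UMIs in P3 cells against 356 CPM in P2 cells, at least 6.71-fold lower. Car3, a carbonic anhydrase gene of fat, was at least 4.69-fold lower and the immediate early gene Egr2 at least 3.60-fold lower. Postn, periostin, had 814 CPM against 5440 CPM (log2 ratio -2.71, -3.19 to -2.32), and 14 of its 46 UMIs in P3 cells came from 1 cell. The proteoglycan gene Sdc1 (17.7 CPM against 253 CPM) had a ratio of -2.86, and of -0.51 in cells thinned to 200 UMIs.

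**Figure D3:**
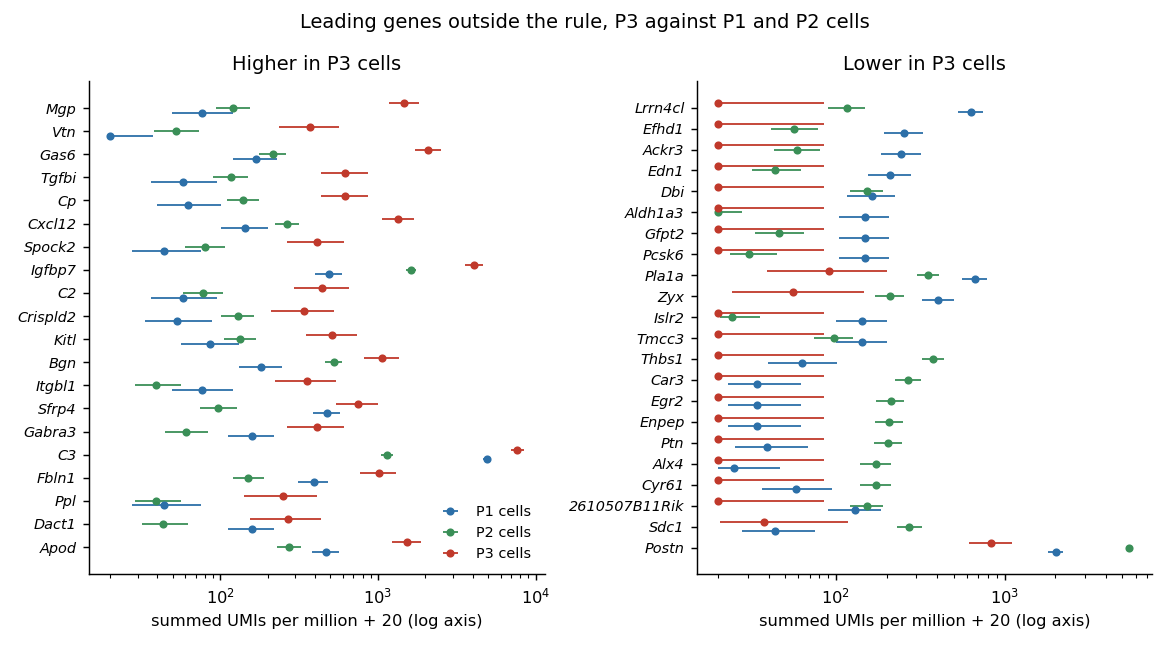
Summed CPM plus 20 (log axis) in P3, P1 and P2 cells of both mice together for genes among the highest (left) or lowest (right) in P3 cells, with exact 95% counting intervals. Mgp, Gas6 and Vtn stand above both other classes, whereas C3 lies nearer its P1 level and Postn is below both other classes.

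Genes described for the classes but not used by the rule were counted beside all genes, of which 6.53% were called higher and 12.2% lower against P1 cells, and 4.64% and 14.9% against P2 cells. For P3 cells, 20 such genes were listed. Of the 10 with enough UMIs against P1 cells, 9 were called higher and 0 lower. Their median log2 ratio was 1.59 against -0.05 over all genes. Against P2 cells, 9 of 13 were called higher and 0 lower (median 1.09 against -0.15). A listed gene scarce in the other class reached the minimum through P3 cells, and the lists were chosen with earlier results known. The counts are thus a description and no independent support for the class. Mmp3, a matrix metalloproteinase, had 1397 CPM in P3 cells, 481 CPM in P1 cells and 848 CPM in P2 cells, so it was called against P1 cells alone. Bgn, biglycan, had 1044 CPM, 162 CPM and 506 CPM. The globin gene Cygb had 1061 CPM, 233 CPM and 500 CPM. Gpx3, a secreted peroxidase, was not called in either comparison (1963 CPM, 2576 CPM and 1071 CPM). Of the genes described for P1 cells, 12 of 16 were called lower in P3 than in P1 cells (median -1.71), among them Fbn1 (1185 CPM against 5091 CPM) and Fn1 (1397 CPM against 4886 CPM), whereas C3, also on that list, was not. Of those described for P2 cells, 8 of 17 were called lower in P3 than in P2 cells and 1, Gpc3, higher (median -0.86).

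Against P2 cells, 7 of 16 genes of complement and coagulation were called higher and 1 lower, beside 4.64% and 14.9% of all genes, with a median log2 ratio of 0.97 against -0.15 over all genes. Against P1 cells, 4 of 15 were called higher and 3 lower, beside 6.53% and 12.2% of all genes (median 0.68 against -0.05), and this median was -0.22 without the cells that held any UMI of the T cell, B cell or macrophage lists. Serping1, the C1 inhibitor, had 3131 CPM in P3 cells, 1867 CPM in P1 and 998 CPM in P2 cells. C4b, whose reads may be shared with its close copy C4a, had 1574 CPM, 543 CPM and 305 CPM. C2 had 425 CPM, 38.1 CPM and 57.9 CPM. Cd55, which protects cells from complement, was lower than in P1 cells (53.1 CPM against 376 CPM).

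Growth factor pathways related to the list genes were split, and several of their counts lie near those of all genes (6.53% higher and 12.2% lower against P1 cells, 4.64% and 14.9% against P2 cells). Of 12 BMP and TGF-beta genes, 2 were called higher and 3 lower against P1 cells (median 0.11), and of 16 against P2 cells 2 higher and 1 lower (median 0.08). The sign of the first median changed in 8 of 22 settings (down to -0.96) and that of the second in 7 of 22. TMM factors and leaving out KO5_p2, KO6_p1 or WT4_p3 each changed both. Smoc2, a matricellular protein of the SPARC family, had 619 CPM in P3 cells against 119 CPM in P1 and 159 CPM in P2 cells. Ltbp4, which tethers latent TGF-beta, had 778 CPM against 252 CPM and 193 CPM. Fstl1, a secreted follistatin-like protein, was lower than in P1 cells (2423 CPM against 5872 CPM). Of the WNT genes, 1 of 8 was called higher and 2 lower against P1 cells (median 0.57), and 3 of 13 higher and 1 lower against P2 cells (median -0.23). The first median was -0.33 in cells thinned to 200 UMIs, and the second was above 0 in thinned cells (0.05), without KO6_p3 (0.06), without WT4_p2 and with a minimum of 1 UMI (0.19). Wnt5a (195 CPM against 76.2 CPM and 47.2 CPM) was called higher in both comparisons, and Sfrp2 was lower than in P1 cells (142 CPM against 671 CPM). In the insulin-like growth factor system, 2 of 8 genes were called higher and 2 lower against P1 cells (median -0.04, with the other sign in 4 of 22 settings), and 2 of 9 higher and 0 lower against P2 cells (median 0.30). Igf1 (743 CPM against 314 CPM and 330 CPM) and Igfbp7 were called higher in both comparisons, and Igfbp5 and Igfbp6 were lower than in P1 cells (796 CPM against 2457 CPM, and 1132 CPM against 3538 CPM).

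Of 13 adipogenic genes, 6 were called lower and 2 higher against P2 cells (median -0.79). Of all genes, 14.9% were called lower and 4.64% higher in that comparison, with a median of -0.15, and 12.2% lower and 6.53% higher against P1 cells, with a median of -0.05. Fabp4, the fatty acid binding protein of adipocytes, had 195 CPM in P3 cells, 1234 CPM in P2 cells and 243 CPM in P1 cells, and Plin2, a lipid droplet protein, had 53.1 CPM against 315 CPM in P2 cells. Apoe, in contrast, had 8579 CPM in P3 cells against 8906 CPM in P2 and 3462 CPM in P1 cells. Of the fibrogenic genes, 6 of 25 were called lower and 1 higher (Mmp3) against P1 cells (median -0.45), and 7 of 30 lower and 1 higher (Eln, elastin) against P2 cells (median -0.42). Of 12 basement membrane genes, 4 were called lower and 1 higher against P2 cells (median -0.86). The collagen gene Col18a1 had 142 CPM against 865 CPM and the laminin gene Lamb1 371 CPM against 1777 CPM, while the laminin gene Lamb2 had 814 CPM against 215 CPM.

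The counts of the next lists stand beside 6.53% of all genes called higher and 12.2% lower against P1 cells, and 4.64% and 14.9% against P2 cells, and with so few genes tested per list several lie near these shares. Of 13 interferon response genes, 5 were called lower and 0 higher against P1 cells (median -0.72), and 1 of 15 was called in each direction against P2 cells (median 0.03). Of 7 macrophage markers, 5 were called lower and 0 higher in P3 than in P2 cells (median -2.10), but in cells thinned to 200 UMIs a single marker was left, with a ratio of 0.30. Of the Hedgehog genes, 0 of 3 were called against P1 cells and 1 of 5, Gpc3, against P2 cells. Gas1, a Hedgehog co-receptor, had 389 CPM in P3 cells, 238 CPM in P1 and 322 CPM in P2 cells. Angiogenic genes had 1 of 10 called higher and 3 lower against P1 cells and 0 of 13 and 5 against P2 cells, and immediate early genes had 1 of 10 and 1, and 1 of 15 and 3. Retinoid and xenobiotic genes had 3 of 13 and 3, and 1 of 17 and 2. Of the small leucine-rich proteoglycans, 1 of 4 was called higher and 2 lower against P1 cells, and 2 of 5 higher and 0 lower against P2 cells. Cytokine and chemokine genes had 3 of 7 called higher and 1 lower against P1 cells, led by Cxcl12 and Kitl, and 2 of 8 and 1 against P2 cells.

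Genes picked above for their high level in P3 cells were also set against the summed UMIs of the P3 list in a cell. As the same cells served to pick them, a higher level at high sums was built in, and the values are a description of the steps. C3 had 1542 CPM in 490 stromal cells without a UMI of any of the 3 lists, 3127 CPM in the 40 cells with a single P3 UMI, 4263 CPM at 2 UMIs, 8027 CPM at 3 to 4 UMIs and 8636 CPM at 5 or more. Gas6 had 372 CPM, 977 CPM, 834 CPM, 2120 CPM and 2459 CPM in the same order. Mgp had 95.3 CPM, 489 CPM, 741 CPM, 1969 CPM and 1475 CPM. The cells differed in depth along this order, with a median of 205, 209.5, 296.5, 470 and 563 UMIs per cell.

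**Figure D4:**
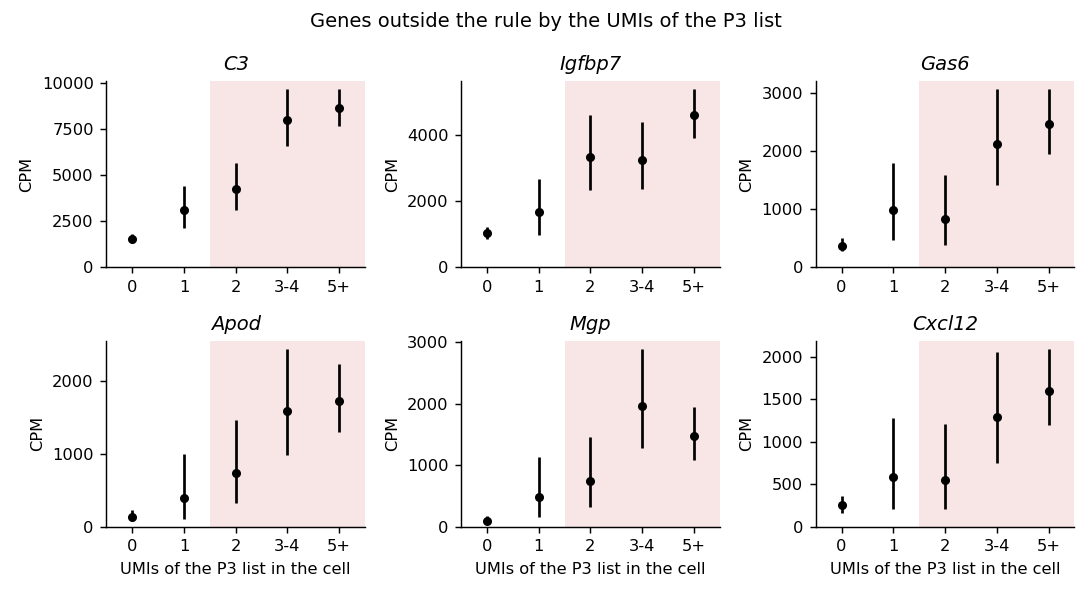
CPM of 6 genes outside the rule in stromal cells by the summed UMIs of the P3 list (0 without P1 or P2 UMIs, 1, 2, 3 to 4, and 5 or more), with exact 95% counting intervals and the P3 cells shaded. C3 runs from 1542 to 8636 CPM and Igfbp7 from 1022 to 4610 CPM.

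P3 cells were not uniform in these genes when grouped by the list gene they held most of. C3 had 14145 CPM in the 26 cells led by Igfbp3, 7140 CPM in the 20 led by Inmt and 3889 CPM in the 16 led by Fmo2. Cxcl12 followed the same order with 2132 CPM, 1052 CPM and 525 CPM. Mgp ran the other way, with 782 CPM in the cells led by Igfbp3, 1052 CPM in those led by Inmt and 3258 CPM in those led by Fmo2. Itgbl1 had 0 UMIs in the cells led by Igfbp3 and 841 CPM in those led by Fmo2. Spock2 was highest in those led by Inmt (977 CPM against 71.1 CPM and 525 CPM), but 7 of its 13 UMIs there came from 1 cell. Igfbp7 was even, at 4478 CPM, 3908 CPM and 3784 CPM. The groups are small, and differences between them were not tested.

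For Bbs8 KO against Bbs8 WT within P3 cells, 291 genes had at least 20 UMIs. Of these, 30 were at least 2-fold higher in Bbs8 KO (10.3%) and 19 were at least 2-fold lower (6.53%). The split was 45 and 14 under TMM factors, with a median of 0.29 over all genes against 0.08 on the CPM scale. The calls rest on 33473 and 23063 UMIs, and 21 of those higher and 13 of those lower had a counting interval on one side of 0. For 1 gene every Bbs8 KO set was above every Bbs8 WT set (0.344%), and for 4 genes every Bbs8 KO set was below (1.37%). Single sets held few UMIs, and a set without a UMI allows up to 276 to 1276 CPM, so these orders are a description of the counts.

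The gene with all Bbs8 KO sets above was Scara3 (GRCm38 chr14:65919394-65953935, minus strand), a scavenger receptor class A gene. It had 962, 614, 276, 399 and 1416 CPM in the 5 Bbs8 KO sets, and 226 CPM in WT4_p3 and 0 UMIs in the other Bbs8 WT sets, which allow up to 783, 1134, 1276 and 306 CPM. These limits lie above the lowest Bbs8 KO set, so the sets cannot be placed in order. That is 657 CPM against 43.4 CPM, a single UMI in Bbs8 WT, with a log2 ratio of 3.42 (1.29 to 9.29). The same log2 ratio was 0.36 in P1 cells and 0.42 in P2 cells.

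The genes with all Bbs8 KO sets below were Col4a1, Clec3b, Rrbp1 and, by less than 1 UMI, Mlec. Col4a1, a chain of basement membrane collagen, had 641, 614, 919, 798 and 991 CPM in Bbs8 KO and 2088, 3023, 1701, 4180 and 1582 CPM in Bbs8 WT. Its log2 ratio was -1.79 (-2.51 to -1.16) in P3 cells, -0.36 in P1 and -0.48 in P2 cells. It was -0.89 in cells thinned to 200 UMIs, under 2-fold. Its partner chain Col4a2 was at 597 CPM in Bbs8 KO versus 564 CPM in Bbs8 WT. Clec3b, tetranectin, had 266 to 1103 CPM over the Bbs8 KO sets and 1808 to 3160 CPM over the Bbs8 WT sets (log2 ratio -1.81, -2.58 to -1.13), and was lower in P1 (-0.92) and P2 cells (-1.43) too. Rrbp1, a ribosome-binding protein of the endoplasmic reticulum, had 321 to 1133 CPM and 1276 to 5291 CPM (-1.79), against 0.03 in P1 and -0.43 in P2 cells. Mlec, a lectin of the endoplasmic reticulum, had 0 to 425 CPM and 425 to 1044 CPM (-1.84, and -0.91 in thinned cells), and its highest Bbs8 KO set (3 UMIs) met its lowest Bbs8 WT set (1 UMI). Rpn1, a subunit of the oligosaccharyltransferase, had 149 CPM against 1041 CPM (-2.65), and Cd63, a tetraspanin, 388 CPM against 1604 CPM (-1.99). The sets of these last 2 genes overlapped.

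**Figure D5:**
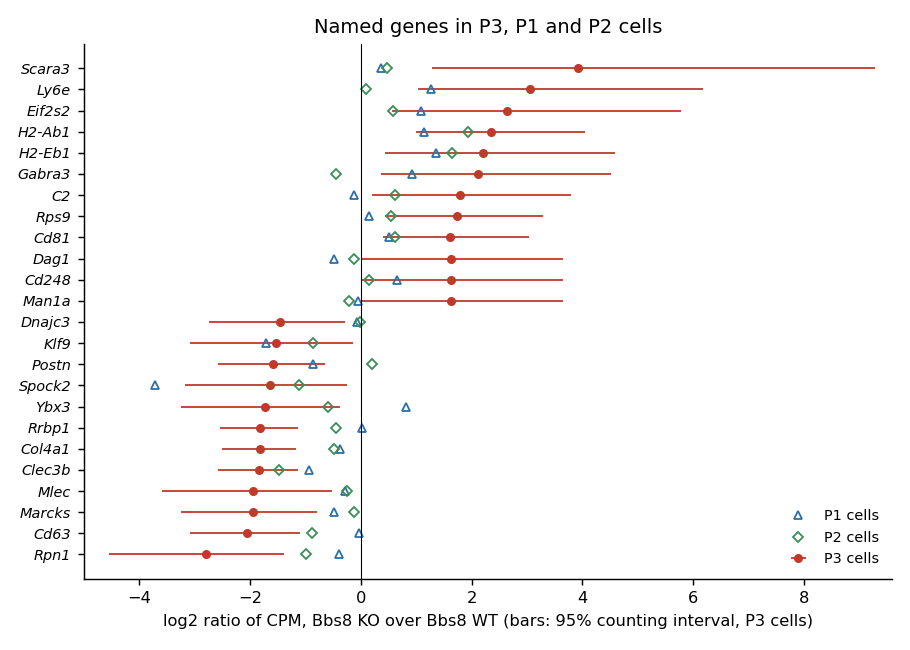
Log2 ratio of CPM, Bbs8 KO over Bbs8 WT and without the added 20 CPM, for the 24 named genes in P3 cells (points with exact 95% counting intervals) and in P1 and P2 cells (open symbols). Scara3 is the highest and Rpn1 the lowest in P3 cells, and both lie nearer 0 in P1 and P2 cells.

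The MHC class II genes H2-Ab1 and H2-Eb1 were called higher in Bbs8 KO P3 cells, but not without the cells that held immune UMIs. H2-Ab1 had 321, 818, 643, 532 and 2973 CPM in the Bbs8 KO sets and 522, 0, 0, 204 and 226 CPM in the Bbs8 WT sets, so that the sets overlapped. Its log2 ratio was 2.25 (1.00 to 4.05), and 10 of its 42 UMIs came from 1 cell. Its ratio was 1.10 in P1 and 1.84 in P2 cells. The B cell list was higher in Bbs8 KO in P3 cells (896 CPM against 347 CPM) and over all cells (3917 CPM against 1096 CPM). The macrophage list was higher in Bbs8 KO in P3 cells (418 CPM against 217 CPM) and P2 cells (1206 CPM against 775 CPM). In P1 cells (715 CPM against 836 CPM) and over all cells (4884 CPM against 5782 CPM) it was lower. Whether such UMIs account for the MHC class II ratios was not tested. Without the cells that held any UMI of the T cell, B cell or macrophage lists, 34 Bbs8 KO and 40 Bbs8 WT P3 cells were left and the ratio of H2-Ab1 was -0.18. H2-Eb1 had 598 CPM against 130 CPM (2.04), with 8 of its 23 UMIs in 1 cell. Its ratio was 0.65 without the cells that held immune UMIs and 0.93 without KO6_p3, both under 2-fold. Ly6e, an interferon-induced surface protein, had 717 CPM against 86.7 CPM (2.79), and its ratio was 1.19 in P1 and 0.09 in P2 cells. C2 had 598 CPM against 173 CPM and Gabra3 568 CPM against 130 CPM (1.67 and 1.97), but their Bbs8 WT UMIs came from 1 set each. The remaining genes named as higher were Eif2s2, Rps9, Cd81, Man1a, Dag1 and Cd248, with ratios of 1.53 to 2.39. Of these, Cd81 had 0.89 without the cells that held immune UMIs, and Cd248 had -0.40 in thinned cells.

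Of the genes that led against P1 or P2 cells, C2 and Gabra3 were called higher in Bbs8 KO and Spock2 lower (209 CPM against 650 CPM, -1.55, and -0.49 without WT4_p2). Mgp (log2 ratio 0.18, -0.49 to 0.87), Gas6 (-0.21), C3 (-0.06, -0.34 to 0.22), Igfbp7 (0.20) and Cxcl12 (0.54, -0.18 to 1.31) had intervals that took in 0. Of the 8 further P3 genes with enough UMIs, 0 were called, with a median of 0.21 (-0.75 in thinned cells). Of 20 fibrogenic genes, 1 was called higher, Eln (956 CPM against 390 CPM, 1.25), and 1 lower, Postn (448 CPM against 1344 CPM, -1.54, and -0.41 without WT4_p2). That is 1 of 20 in each direction, beside 10.3% of all genes higher and 6.53% lower. Their median was 0.19 (0.08 to 0.46 under the other settings), beside 0.08 over all genes, 0.29 with TMM and 0.35 with median-of-ratios factors. Of 8 basement membrane genes, Col4a1 alone was called (median -0.05). Apoe, at 7319 CPM in Bbs8 KO versus 10406 CPM in Bbs8 WT P3 cells (-0.51), was not called, against ratios of -1.68 in P1 and -1.42 in P2 cells. Of the genes of the rule, Inmt had a ratio of -0.02 in P3 cells, -2.40 in P1 and -1.90 in P2 cells, values that the rule itself bears on. Whether ratios differed between classes was not tested.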

How the data were processed

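Single-cell libraries of the iWAT stromal vascular fraction of 1 Bbs8 KO and 1 Bbs8 WT mouse were analysed. The deposited UMI counts covered 14623 genes and 10914 cells. Per the methods of the study and its processing notes, the authors demultiplexed reads with bcl2fastq 2.20, aligned and counted with STAR and Drop-seq tools (mm10, GENCODE), evened out depth, and filtered cells by gene number and mitochondrial share. Whether depth was evened out before deposit is not stated. Cells had 101 to 994 detected genes, and no further filter or doublet removal was applied here.

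The members and gene lists were chosen with earlier results of these data known. UMIs were summed per class and mouse and given as CPM. Ratios are log2 with a pseudocount of 20 CPM, over genes with at least 20 UMIs, and a call needed 2-fold. Named genes were the 12 highest and 12 lowest called ratios of each comparison whose exact conditional 95% interval lay on one side of 0, the genes of the rule, and list members with the most UMIs or the largest ratio. A count of 0 was given a limit of 3 UMIs over the group. All intervals and limits cover counting error only. Alternatives used other pseudocounts and minimums, TMM (edgeR 4.0.16) and median-of-ratios factors (DESeq2 1.42.0), totals without mitochondrial genes and Gm42418, other limits of the rule, cells thinned to 200 UMIs, and each barcode set left out. After the data were seen, alternatives without Chrdl1 in the list, without shared barcodes, without immune UMIs and without the top cell of each gene were added. Scripts ran in Python 3.11.15, numpy 2.4.6, pandas 2.3.3, scipy 1.17.1 and R 4.3.3 and were tested on simulated counts. Motifs were searched in RefSeq promoters, and gene positions are from GENCODE. Some genes that met the naming rule are not reported here.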

Additional observations from a re-analysis of the deposited data

Results flagged for a closer look

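F3 in the P3 cells of the barcode set KO6_p2 stood apart from the other Bbs8 KO sets, at 1064 CPM against 91.9 to 321 CPM. Of 24 groups of 5 sets searched, this was the 1 group with a set so far from the others, and about 1.2 would be found by chance (1 in 20). That rate is for normally spread values, which counts this small need not follow. Bbs8 KO held 12 F3 UMIs, and 4 without KO6_p2, and F3 was also used to choose the cells. A search of 126 contrasts of named genes with P1 or P2 cells flagged none.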

How the results depend on the processing

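No paired analysis was possible because the results come from no test (1 mouse per genotype). The difference in the P3 share was -1.18 points with at least 3 UMIs of the list, and -3.44 to -2.59 points with 1 barcode set left out. Against P1 cells, 387 genes were called, but 254 with a pseudocount of 50 CPM, 118 with at least 50 UMIs, 1521 with at least 1 UMI and 76 in cells thinned to 200 UMIs. Against P2 cells, the 831 calls became 389, 263, 1712 and 192 in the same order. The 49 calls between genotypes became 9 with at least 50 UMIs, 4871 with at least 1 UMI, 8 in thinned cells and 26 without cells holding T cell, B cell or macrophage UMIs, an alternative added after the data were seen. The totals of the higher and lower calls stayed within 1.5 times under the other scalings, but their split moved. Median-of-ratios factors gave 65 and 385 against P1 cells, 124 and 823 against P2 cells, and 49 and 13 between genotypes, and totals without mitochondrial genes and Gm42418 gave 24 and 23 between genotypes. Of 1564 values of 72 named results, 1514 moved by less than their counting interval, 47 moved by more and 3 changed direction. Those 3 were Dbi against P1 cells in thinned cells (0.45), Cd248 between genotypes in thinned cells (-0.40) and H2-Ab1 without cells holding T cell, B cell or macrophage UMIs (-0.18), and the cause was not tested. With 106 P3 cells, a gene without a UMI in them could still have up to 53.1 CPM. The minimum of 20 UMIs left 291 genes for the comparison of genotypes. The alternatives with a stromal share of at least 2% and with at least 150 detected genes were run for the share only.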
